A study of Arabidopsis thaliana with 12 samples.

Results

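The 10 genes described here encode the transporters that take up and move nitrate in Arabidopsis thaliana and the enzymes that reduce it. They were picked by their AGI locus codes, and all 10 were found among the 23911 genes of the count table. They comprise NRT2.1, NRT2.2, NRT2.4, NRT2.5 and the partner protein NAR2.1, the transporters NRT1.1, NRT1.5 and NRT1.8, and the nitrate reductases NIA1 and NIA2. The reference annotation carries these names for 9 of the 10 and lists NAR2.1 as WR3. Poly(A) RNA of seedlings was sequenced in 12 samples, and the study's title names the histone deacetylase HDA9, organelle redox systems and signalling by abscisic acid (ABA), a hormone of drought stress. The 4 groups had 3 samples each. They were the mutant hda9-1 sprayed with 50 µM ABA for 4 h, hda9-1 without ABA, wild type Col-0 (WT) with the same spray, and WT without ABA. All seedlings were 2 to 3 weeks old and grew on MS medium with 1% sucrose at 20 °C, in 16 h of light and 8 h of dark. MS medium is a plant culture medium that supplies nitrate and ammonium. Groups follow the sample titles, because the treatment field of the labels gives ABA for every hda9-1 sample and none for every WT sample. The columns of the count table name 0 h for untreated and 4 h for treated samples. Mock-sprayed samples are not among the labels, and ABA and the hours that passed, or the hour of day, cannot be told apart.

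Plants take up nitrate from the soil with transporters of low and of high affinity. High-affinity uptake rests on NRT2 proteins, most of which need NAR2.1, also called NRT3.1, to reach the plasma membrane and work. Inside the plant, NRT1.5 loads nitrate into the root xylem and NRT1.8 takes it back out, nitrate reductase turns it into nitrite, and nitrite reductase with glutamine synthetase passes the nitrogen on to amino acids.

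The 12 libraries held between 42703802 and 52820930 counts and detected between 21510 and 22189 genes. Levels are in CPM, counts divided by library size and scaled by the trimmed mean of M-values, and differences are log2 fold changes with a standard error (SE). The edgeR test gives no SE, so it was derived as the size of the fold change over the square root of the F statistic. Unless an alternative fit or a left-out sample is named, every adjusted p below is Benjamini-Hochberg adjusted over 20924 genes from the quasi-likelihood test of edgeR. That test is two-sided, and a gene was called at an adjusted p below 0.05. Each alternative fit was adjusted over the genes it tested. The titles number biological replicates, but separate cultures are not stated. A p-value here reflects only how far samples scatter within their groups, which may be technical. That scatter was estimated from all 4 groups together, although it differed between them. The median SD over genes was 0.21 log2 in hda9-1 with ABA and 0.155 log2 in hda9-1 without ABA. In WT it was 0.13 log2 with ABA and 0.131 log2 without. HDA9 checked the genotype labels. It had 5.26, 4.78 and 5.45 CPM in hda9-1 with ABA and 5.87, 5.45 and 4.72 CPM in hda9-1 without ABA, against 16.8, 16.6 and 16.3 CPM in WT with ABA and 17.1, 16.0 and 15.7 CPM in WT without ABA. Every hda9-1 sample lay below every WT sample. The difference was -1.68 ± 0.12 log2 with ABA (adjusted p = 6.7e-06) and -1.60 ± 0.12 log2 without (adjusted p = 1.2e-05). The counts are of whole seedlings, and fewer cells of a type and less RNA per cell cannot be told apart.

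NRT2.1 (AT1G08090) and NRT2.2 (AT1G08100) stand next to each other on chromosome 1. NRT2.1 spans 2524023 to 2526322 on the plus strand with 3 exons, NRT2.2 spans 2527170 to 2529120 on the minus strand with 3 exons, and 847 nt lie between them (TAIR10.1). The 300 bases before each annotated start are shown because the pair differed so much in level although these stretches share 3 runs of at least 12 identical bases. The runs, in capitals, hold 55 bases together, the longest 22. Both sequences are read 5′ to 3′ on the strand of their gene, NRT2.1 from chr1:2523723-2524022 and NRT2.2 from chr1:2529121-2529420.
NRT2.1: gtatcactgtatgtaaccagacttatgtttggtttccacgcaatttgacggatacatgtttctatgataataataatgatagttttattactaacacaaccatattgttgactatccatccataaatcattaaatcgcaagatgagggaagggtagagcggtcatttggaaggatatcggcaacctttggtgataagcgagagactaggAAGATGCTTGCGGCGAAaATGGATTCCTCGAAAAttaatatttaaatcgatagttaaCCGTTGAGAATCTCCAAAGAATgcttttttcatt
NRT2.2: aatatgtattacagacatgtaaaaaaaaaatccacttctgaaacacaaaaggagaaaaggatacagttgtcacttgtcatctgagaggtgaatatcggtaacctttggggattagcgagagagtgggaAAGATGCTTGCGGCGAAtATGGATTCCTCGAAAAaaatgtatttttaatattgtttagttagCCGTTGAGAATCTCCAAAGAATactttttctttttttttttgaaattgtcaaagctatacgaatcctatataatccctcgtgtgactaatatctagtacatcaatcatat

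The stretches of the same length before NAR2.1 (AT5G50200, chromosome 5, 20436180 to 20437815, plus strand, 2 exons) and before NIA2 (AT1G37130, chromosome 1, 14158452 to 14161938, plus strand, 3 exons) are shown because NIA2, which did not pass the test for ABA, holds the core of the ABA response element and NAR2.1, which rose with ABA in hda9-1, does not. The capitals mark that core, ACGTG, searched on both strands. It was found before NIA2 and before none of the other 9 genes, and 25.6% of 27443 Arabidopsis promoters of this length hold it. The longer G-box CACGTG, which contains that core, is in 7.09% of all these promoters and was found before none of the 10 genes. Only these 300 bases were searched, and the part of either motif in the ABA response was not tested. The sequences come from chr5:20435880-20436179 and chr1:14158152-14158451.
NAR2.1: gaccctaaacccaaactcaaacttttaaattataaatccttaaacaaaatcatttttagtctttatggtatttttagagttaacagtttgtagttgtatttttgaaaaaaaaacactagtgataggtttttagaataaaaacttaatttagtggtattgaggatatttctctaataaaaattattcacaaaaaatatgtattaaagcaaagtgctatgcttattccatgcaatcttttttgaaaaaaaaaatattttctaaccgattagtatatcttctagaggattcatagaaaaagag
NIA2: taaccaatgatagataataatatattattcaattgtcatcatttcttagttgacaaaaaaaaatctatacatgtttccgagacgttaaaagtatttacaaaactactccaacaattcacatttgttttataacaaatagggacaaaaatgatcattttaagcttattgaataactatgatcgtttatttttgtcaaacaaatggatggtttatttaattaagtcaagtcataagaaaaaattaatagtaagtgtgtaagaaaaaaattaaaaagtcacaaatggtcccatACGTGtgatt

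**Figure D1:**
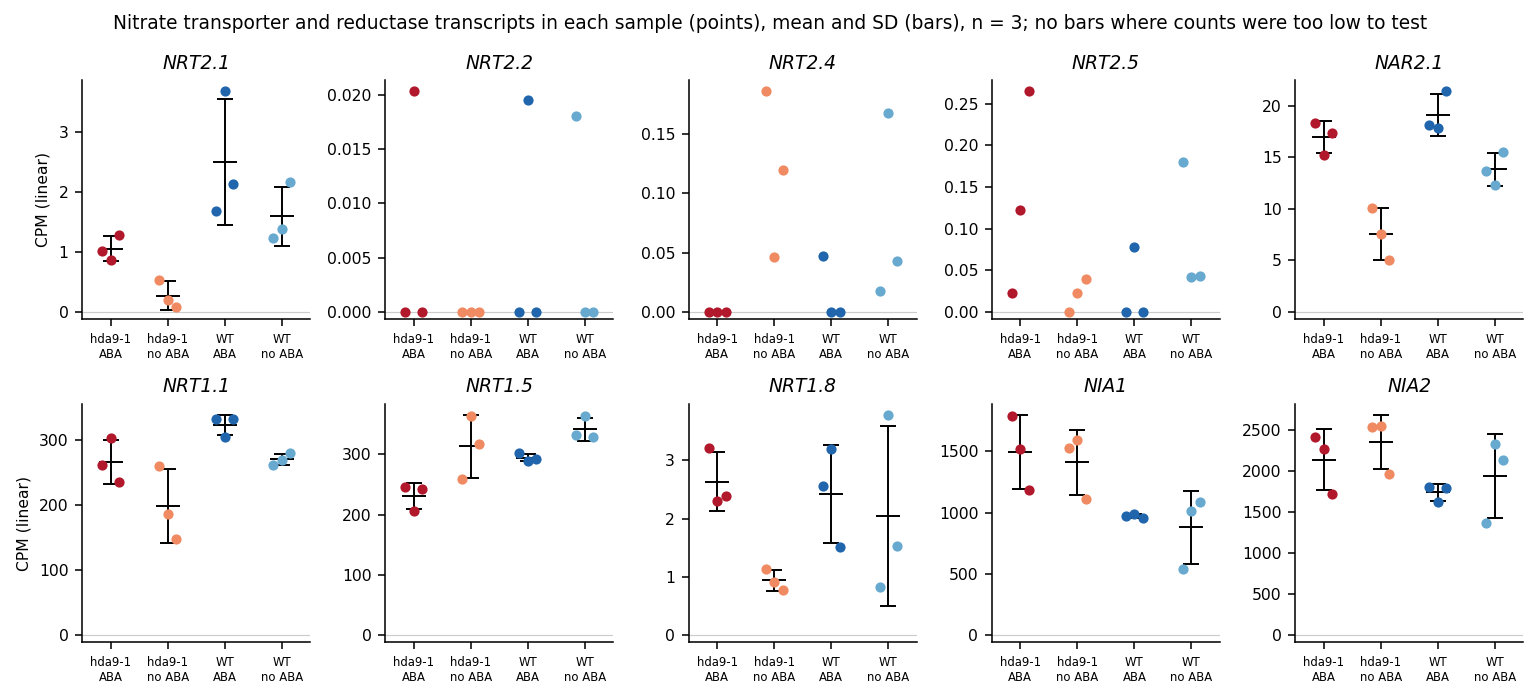
Level of each of the 10 genes in each of the 12 samples, in CPM on linear axes of different range. Points are samples and bars the mean and SD (n = 3), left out for the 3 genes with too few counts to test. NRT2.1, NAR2.1 and NRT1.8 had their lowest group in hda9-1 without ABA, and NRT2.2 had at most 1 count in any sample.

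Among the high-affinity genes, NRT2.1 and its partner NAR2.1 were lower in hda9-1 than in WT without ABA, and both rose with ABA in hda9-1. NRT2.1, the main inducible high-affinity transporter of roots, had 1.02, 0.871 and 1.28 CPM in hda9-1 with ABA and 0.537, 0.207 and 0.0803 CPM in hda9-1 without ABA. In WT it had 1.69, 3.68 and 2.13 CPM with ABA and 1.23, 1.39 and 2.16 CPM without. All 3 untreated hda9-1 samples lay below all 9 others, and the 2 WT groups overlapped. These levels rest on few reads, from 4 counts in untreated hda9-1 replicate 3 to 189 counts in ABA-treated WT replicate 2. NRT2.1 rose by 1.93 ± 0.52 log2 with ABA in hda9-1 (adjusted p = 0.0071). In WT the difference was 0.66 ± 0.44 log2 (adjusted p = 0.29). Between genotypes it was -1.25 ± 0.46 log2 with ABA (adjusted p = 0.081) and -2.52 ± 0.51 log2 without (adjusted p = 0.0054). The size of both differences moved between the 22 alternative fits. The ABA response in hda9-1 ran from 1.47 to 2.85 log2, and the genotype difference without ABA from -3.47 to -2.06 log2. The values of 2.85 and -3.47 log2 came without untreated hda9-1 replicate 1. Both differences remained called in all 22 fits.

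NAR2.1 differed in the same directions, with 252 to 1025 counts per sample. It had 18.3, 15.2 and 17.4 CPM in hda9-1 with ABA and 10.1, 7.52 and 5.06 CPM in hda9-1 without ABA. WT had 18.1, 17.8 and 21.4 CPM with ABA and 13.7, 12.3 and 15.5 CPM without. The untreated hda9-1 samples were again below all 9 others, and the 2 ABA-treated groups overlapped. NAR2.1 rose by 1.17 ± 0.19 log2 with ABA in hda9-1 (adjusted p = 1.8e-04), and in WT, where the groups did not overlap, the difference was 0.47 ± 0.19 log2 (adjusted p = 0.068). The WT difference was called in 5 of 22 alternative fits, among them the fit to the 2 WT groups alone (adjusted p = 0.0036). Between genotypes the difference was -0.17 ± 0.18 log2 with ABA (adjusted p = 0.58) and -0.87 ± 0.19 log2 without (adjusted p = 0.0085). The ABA responses of the 2 genotypes differed by 1.27 ± 0.68 log2 for NRT2.1 (adjusted p = 0.47) and by 0.70 ± 0.26 log2 for NAR2.1 (adjusted p = 0.35), neither past the threshold. The comparisons share samples, since untreated hda9-1 enters both the response in hda9-1 and the genotype difference without ABA.

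NRT2.2, NRT2.4 and NRT2.5 had too few counts for the test. NRT2.2, a close copy of NRT2.1 with an overlapping uptake role, had 0 or 1 count in every sample. Its summed counts were 1 in hda9-1 with ABA, 0 in hda9-1 without ABA, 1 in WT with ABA and 1 in WT without ABA. A count of 0 in a library allows up to 3 counts, which is 0.054 to 0.0712 CPM, so a transcript below that level can go unseen in a library at this depth. Of the 75-base words in the transcripts, 5.3% of those in NRT2.1 and 6.61% of those in NRT2.2 also occur in the other, so reads from these stretches could be counted under either gene.

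NRT2.4, a transporter of very high affinity known from nitrogen-starved roots, had 0 counts in all 3 ABA-treated hda9-1 samples and 9, 2 and 6 counts in untreated hda9-1. In WT it had 2, 0 and 0 counts with ABA and 1, 8 and 2 counts without. With 0 read as a floor of 3 counts over the group, hda9-1 with ABA was 5.52-fold lower than hda9-1 without ABA. This takes the 17 counts of untreated hda9-1 as exact and is not a 95% bound. In WT the ratio of ABA to no ABA was 0.192, with a 95% counting interval of 0.0207 to 0.88. The WT groups overlapped and the hda9-1 groups did not. NRT2.3 (AT5G60780), its neighbour on chromosome 5 at a distance of 3617 nt, was looked at after its values were seen. It had 0, 4 and 1 counts in hda9-1 with ABA and 25, 18 and 58 counts in hda9-1 without ABA, and 0, 2 and 0 counts in WT with ABA against 14, 12 and 12 counts in WT without ABA. Treated and untreated samples did not overlap in either genotype, and NRT2.3 passed the test in hda9-1 (adjusted p = 0.0013) and in WT (adjusted p = 0.0096), with ABA-to-no-ABA ratios of 0.0508 (95% counting interval 0.0162 to 0.123) and 0.0556 (0.0065 to 0.215).

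NRT2.5, the NRT2 gene known from long starved plants, had more counts with than without ABA in hda9-1 and fewer in WT. It had 1, 6 and 12 counts in hda9-1 with ABA and 0, 1 and 2 counts in hda9-1 without ABA, and 0, 4 and 0 counts in WT with ABA against 10, 2 and 2 counts in WT without ABA. The ratio of ABA to no ABA was 6.5 in hda9-1 (95% counting interval 1.91 to 34.3) and 0.302 in WT (0.0723 to 0.961). Samples overlapped in both genotypes, and these intervals cover counting error only, not the spread between samples.

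NRT1.1 (AT1G12110, chromosome 1, 4105223 to 4109601, plus strand, 5 exons) is a dual-affinity transporter that also senses nitrate. It had 262, 303 and 236 CPM in hda9-1 with ABA and 261, 186 and 149 CPM in hda9-1 without ABA, and 332, 305 and 333 CPM in WT with ABA against 262, 270 and 280 CPM in WT without ABA. The WT groups stood apart, whereas the hda9-1 groups overlapped. In hda9-1 the difference passed the threshold at 0.43 ± 0.16 log2 (adjusted p = 0.039), but it was called in 7 of 22 alternative fits only, with adjusted p from 8.3e-04 to 0.18. Leaving out any 1 of the 6 WT samples, of untreated hda9-1 replicates 2 and 3 or of ABA-treated hda9-1 replicates 1 and 2 lost the call, with adjusted p from 0.051 to 0.18, the last without untreated hda9-1 replicate 3. In WT the difference was 0.26 ± 0.15 log2 (adjusted p = 0.23), and it was called in the fit to the 2 WT groups alone (adjusted p = 0.0098). Between genotypes it was -0.28 ± 0.15 log2 with ABA (adjusted p = 0.26) and -0.44 ± 0.16 log2 without (adjusted p = 0.073).

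NRT1.5 (AT1G32450, chromosome 1, 11715147 to 11719988, minus strand, 6 exons), which loads nitrate into the root xylem, fell with ABA in hda9-1. It had 245, 206 and 242 CPM in hda9-1 with ABA and 259, 363 and 317 CPM in hda9-1 without ABA, and 301, 289 and 292 CPM in WT with ABA against 332, 363 and 328 CPM in WT without ABA. Treated samples lay below untreated ones in both genotypes. The change was -0.44 ± 0.11 log2 in hda9-1 (adjusted p = 0.0046) and remained called in all 22 alternative fits. In WT it was -0.21 ± 0.11 log2 (adjusted p = 0.16), and it was called in the fit to the 2 WT groups alone (adjusted p = 0.044). With ABA, hda9-1 was lower than WT, with a difference of -0.35 ± 0.11 log2 (adjusted p = 0.0497), a call that held in 9 of 22 alternative fits and was lost without any 1 of the 6 WT samples (adjusted p 0.052 to 0.14) or of the 3 ABA-treated hda9-1 samples (adjusted p 0.067 to 0.076). Without ABA the genotypes differed by -0.12 ± 0.11 log2 (adjusted p = 0.51). The gene overlaps PKp3 on the other strand by 16 nt, and whether the counting used strand is not given in the sources used here.

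NRT1.8 (AT4G21680, chromosome 4, 11517353 to 11519805, minus strand, 4 exons), which takes nitrate out of the xylem and is known as a stress-responsive gene, had the largest ABA rise after NRT2.1 among the 7 genes in hda9-1. It had 3.21, 2.31 and 2.38 CPM in hda9-1 with ABA and 1.14, 0.919 and 0.783 CPM in hda9-1 without ABA. WT had 2.56, 3.19 and 1.52 CPM with ABA and 0.829, 3.78 and 1.54 CPM without. The hda9-1 groups stood apart and the WT groups overlapped, with untreated WT holding both its lowest and its highest value. NRT1.8 rose by 1.47 ± 0.45 log2 in hda9-1 (adjusted p = 0.016). The call was lost without ABA-treated hda9-1 replicate 1 (adjusted p = 0.058), untreated hda9-1 replicate 2 (adjusted p = 0.052) or untreated hda9-1 replicate 3 (adjusted p = 0.066). In WT the difference was 0.25 ± 0.43 log2 (adjusted p = 0.71), and 1.04 log2 without untreated WT replicate 2 (adjusted p = 0.058). Between genotypes it was 0.12 ± 0.43 log2 with ABA (adjusted p = 0.89) and -1.11 ± 0.45 log2 without (adjusted p = 0.12). The gene overlaps CPL1 on the other strand by 44 nt. CPL1 averaged 28.0 CPM in hda9-1 with ABA, 27.9 CPM in hda9-1 without ABA, 38.0 CPM in WT with ABA and 35.5 CPM in WT without ABA.

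**Figure D2:**
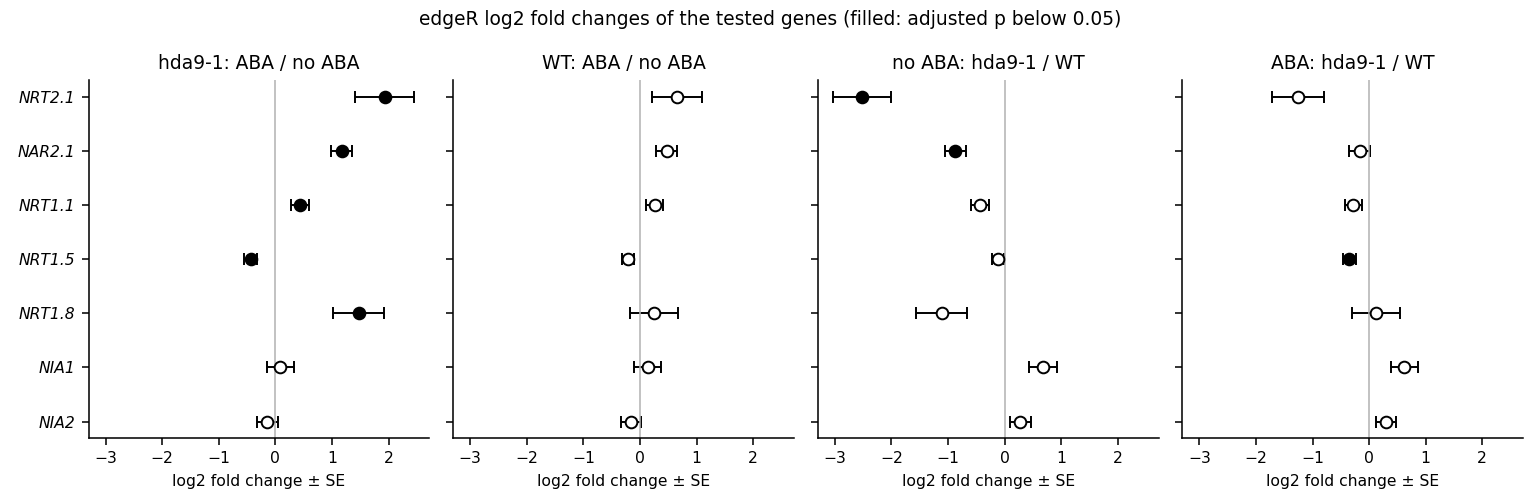
Log2 fold changes from edgeR, with the SE derived from its F statistic, for the 7 tested genes in 4 comparisons, each named as the group on top over the group below. Filled points have an adjusted p below 0.05. NRT2.1, NAR2.1, NRT1.1 and NRT1.8 lie right of 0 and NRT1.5 left of 0 in the ABA response of hda9-1, and no gene is filled in that of WT.

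The nitrate reductases, which carry out the first step of nitrate assimilation, did not pass the edgeR test in any comparison, although NIA1 was called higher in hda9-1 in a few alternative fits. NIA1 (AT1G77760, chromosome 1, 29235721 to 29239484, minus strand, 4 exons) had 1784, 1519 and 1184 CPM in hda9-1 with ABA and 1525, 1593 and 1109 CPM in hda9-1 without ABA, and 970.1, 985 and 958 CPM in WT with ABA against 539, 1013 and 1086 CPM in WT without ABA. Every hda9-1 sample exceeded every WT sample. The difference was 0.62 ± 0.24 log2 with ABA (adjusted p = 0.10) and 0.68 ± 0.24 log2 without (adjusted p = 0.079). The difference with ABA was called in the fit to the 2 groups alone (adjusted p = 0.023) and without untreated WT replicate 1 (adjusted p = 0.019), and that without ABA was called by DESeq2 (adjusted p = 0.042). ABA differences were 0.09 ± 0.24 log2 in hda9-1 (adjusted p = 0.80) and 0.14 ± 0.24 log2 in WT (adjusted p = 0.69).

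NIA2, the major nitrate reductase of leaves, had 2415, 2270.1 and 1713 CPM in hda9-1 with ABA and 2538, 2544 and 1965 CPM in hda9-1 without ABA, and 1799.7, 1623 and 1792 CPM in WT with ABA against 1364, 2322 and 2126 CPM in WT without ABA. Samples of all 4 groups overlapped with their neighbours in the order of means. The ABA differences were -0.14 ± 0.18 log2 in hda9-1 (adjusted p = 0.57) and -0.16 ± 0.18 log2 in WT (adjusted p = 0.56), and the genotype differences 0.30 ± 0.18 log2 with ABA (adjusted p = 0.30) and 0.28 ± 0.18 log2 without (adjusted p = 0.34).

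Counted together, 4 of the 7 tested genes rose with ABA in hda9-1 and 1 fell. Over all 20924 genes tested, 23.3% rose and 18.6% fell in that comparison, 41.9% in all. In WT none of the 7 passed the edgeR test, where 17.0% of all genes rose and 14.0% fell, 30.9% in all. There, 1 of the 7 had an unadjusted p under 0.05, against 41.2% of all genes. Limma-voom and DESeq2 each called 1, NAR2.1, against 6618 and 7128 of all 20924 genes. An edgeR fit to the 2 WT groups alone called 3, against 8369 of 20547 genes. These were NAR2.1 (adjusted p = 0.0036) and NRT1.1 (adjusted p = 0.0098), higher with ABA, and NRT1.5 (adjusted p = 0.044), lower, the same directions as in hda9-1. Without ABA, 2 of the 7 were lower in hda9-1 than in WT and none was higher, against 6.57% lower, 6.98% higher and 13.5% in all over all genes. With ABA, 1 was lower and none higher, against 5.21% lower, 7.50% higher and 12.7% in all. For the difference of the ABA responses, 0 of the 7 passed the edgeR test, as did 0.00% of all genes. An unadjusted p under 0.05 was found for 1 of the 7 and for 11.8% of all genes. Limma-voom and DESeq2 called 0 of the 7, against 0 and 129 of all genes. Leaving out ABA-treated hda9-1 replicate 2 gave 1612 calls over all genes, none of them among the 7. The differences of the 5 genes other than NRT2.1 and NAR2.1 ran from -0.22 ± 0.16 log2 for NRT1.5 (adjusted p = 0.58) to 1.22 ± 0.62 log2 for NRT1.8 (adjusted p = 0.45). Groups did not overlap for 4 of the 7 in the ABA response of hda9-1 (46.7% of all genes), for 3 in that of WT (51.6%), for 4 between genotypes with ABA (29.5%) and for 4 without (36.5%). The median difference of the 7 genes was 0.43 log2 in the ABA response of hda9-1 and 0.25 log2 in that of WT, and -0.17 log2 between genotypes with ABA and -0.44 log2 without. The medians over all genes were 0.01, -0.02, 0.01 and -0.04 log2 in the same order.

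**Figure D3:**
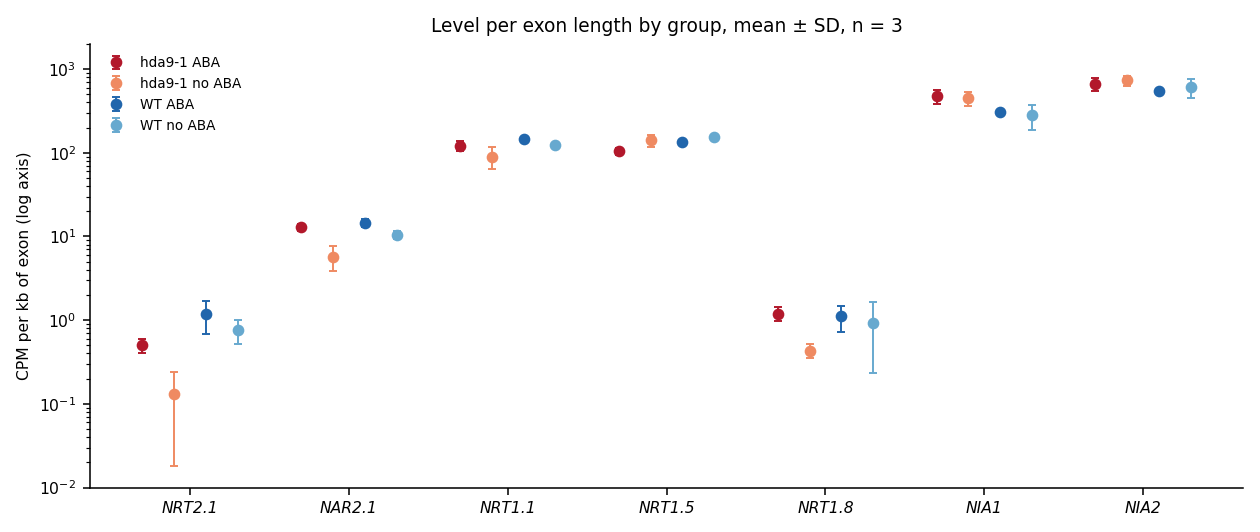
Mean level per exon length with SD (n = 3), in CPM per kb on a log axis, for the 7 tested genes in the 4 groups. The genes lie in 4 tiers, with NIA2 and NIA1 highest, NRT1.5 and NRT1.1 next, then NAR2.1, and NRT1.8 and NRT2.1 lowest.

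Per kilobase of exon, the genes differed by orders of magnitude. NIA2 ranged from 542 to 733 CPM per kb between group means and NIA1 from 279 to 474 CPM per kb. NRT1.5 and NRT1.1 followed, with 104 to 154 and 90.2 to 147 CPM per kb. NAR2.1 had 5.74 to 14.5 CPM per kb, NRT1.8 0.433 to 1.2 CPM per kb and NRT2.1 0.13 to 1.18 CPM per kb. The order of the groups also differed between genes. NRT2.1 ran from WT with ABA through WT without ABA and hda9-1 with ABA to hda9-1 without ABA, and only the last step showed no overlap of samples. NAR2.1 ran from WT with ABA through hda9-1 with ABA and WT without ABA to hda9-1 without ABA, likewise apart at the last step only. NRT1.5 ran from WT without ABA through hda9-1 without ABA and WT with ABA to hda9-1 with ABA, again with samples apart at the last step only. For NIA1 samples were apart only between the lower of the 2 hda9-1 means and the higher of the 2 WT means. NRT1.1 was highest in WT with ABA, apart from its next neighbour WT without ABA, and NRT1.8 and NIA2 overlapped at each step.

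Root tissue markers were read beside these genes, since NRT2.1, NAR2.1, NRT1.5 and NRT1.8 are known mainly from roots. All 20 markers were detected in every group. Their summed level was 546 to 618 CPM in hda9-1 with ABA and 912 to 953 CPM in hda9-1 without ABA, and 847 to 884 CPM in WT with ABA against 1449.6 to 1479 CPM in WT without ABA. Most of it was PYK10, a beta-glucosidase of root ER bodies. Between genotypes, 2 markers were lower in hda9-1 with ABA and 4 without, and none was higher. Over all genes tested, 5.21% were lower and 7.50% higher with ABA, and 6.57% lower and 6.98% higher without. In the ABA response of hda9-1, 9 markers fell and 1 rose, and in that of WT 6 fell and 1 rose. The shares over all genes were 18.6% and 23.3% in hda9-1 and 14.0% and 17.0% in WT. NRT1.5 fell in hda9-1 like most called markers, whereas NRT2.1, NAR2.1 and NRT1.8 rose. The root hair genes COBL9 and EXPA7, chosen among the 20 after their values were seen, had the same order over the untreated hda9-1 samples as NRT2.1. COBL9 had 4.96, 3.84 and 0.963 CPM and EXPA7 had 4.84, 2.23 and 0.883 CPM in replicates 1, 2 and 3, against 7.24, 10.3 and 6.45 CPM and 6.09, 13.1 and 6.73 CPM in untreated WT. This order is not particular to root hair genes. NAR2.1, NRT1.1, NRT1.8 and the marker PYK10 shared it, PYK10 at 709, 677 and 639.8 CPM in untreated hda9-1. In hda9-1 with ABA the orders differed, with NRT2.1 highest in replicate 3 and both COBL9 and EXPA7 highest in replicate 2. The genotype difference without ABA was -1.30 ± 0.45 log2 for COBL9 (adjusted p = 0.083) and -1.70 ± 0.53 log2 for EXPA7 (adjusted p = 0.06), neither called. Of 22 alternative fits, 3 called COBL9 and 4 called EXPA7. PIN2, an auxin transporter of the root tip and one of the 4 markers called lower, had another order, with 27.8, 28.8 and 25.8 CPM in untreated hda9-1 against 41.1, 36.4 and 38.3 CPM in untreated WT. The part of the markers in the lower NRT2.1 and NAR2.1 of untreated hda9-1 was not tested. The 8 leaf markers summed to 19139 to 22024 CPM in hda9-1 with ABA, 20041 to 26680.4 CPM in hda9-1 without ABA, 20601 to 21356 CPM in WT with ABA and 20109 to 25687 CPM in WT without ABA, and none was at 0. Of the 8, 2 fell with ABA in hda9-1 and 2 rose in WT, and 2 were lower in hda9-1 with ABA and 1 without.

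**Figure D4:**
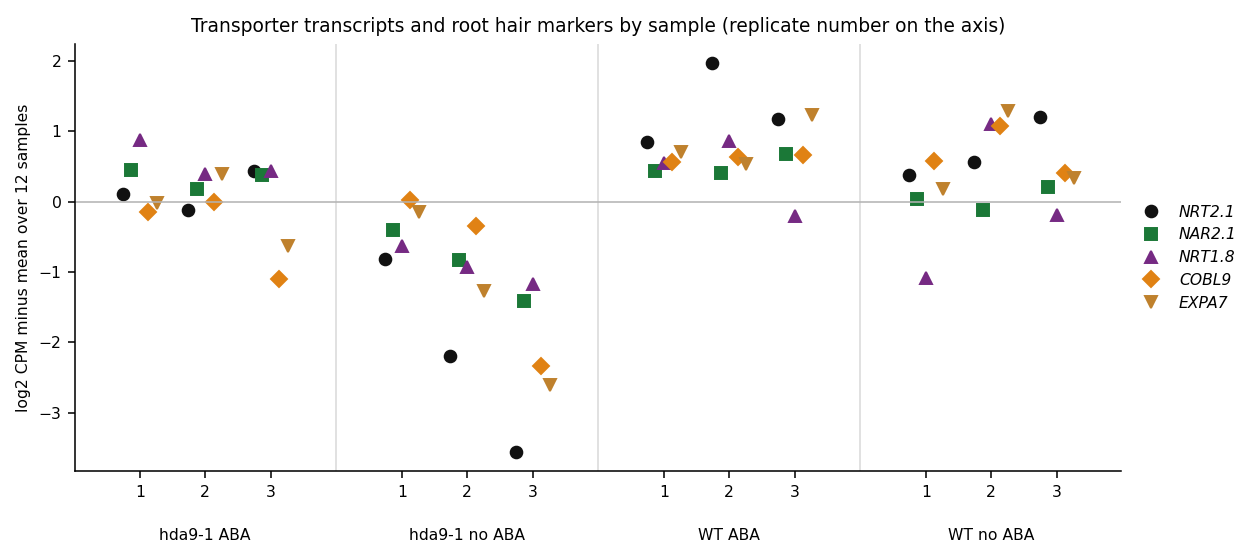
Log2 CPM of NRT2.1, NAR2.1 and NRT1.8 and of the root hair markers COBL9 and EXPA7 in each sample, centred on the mean of each gene over 12 samples. COBL9 and EXPA7 were chosen among the root markers after their values were seen. Each of the 5 genes has its lowest value in untreated hda9-1 replicate 3 and, within that group, its highest in replicate 1. In hda9-1 with ABA, NRT2.1 is highest in replicate 3 and both root hair markers are highest in replicate 2.

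Exon length moved with the ABA response of hda9-1 over all genes. The median was 0.28 log2 for genes of up to 1273 nt of exon and -0.15 log2 for genes of 2369 nt or more, which are the shortest and the longest 25% of genes. NAR2.1 has 1315 nt of exon, NRT2.1 2111 nt, NRT1.8 2186 nt and NRT1.5 2216 nt. With each library's trend on length removed, the calls of these 4 genes in that response remained, with NAR2.1 at 1.03 log2.

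The genes nearest in pattern were listed for the members that varied most. Likeness was taken as the root mean square difference of log2 CPM over the 12 samples, each gene centred on its own mean, among 18531 genes. The nearest to NRT2.1 were AT2G25510 at 0.46 log2, AT5G40860 at 0.51 log2 and the cation channel gene CNGC11 at 0.51 log2. Nearest to NAR2.1 were EDS5, a transporter of the salicylic acid pathway, at 0.18 log2, AT1G18980 at 0.19 log2 and AT3G16510 at 0.19 log2. EDS5 averaged 7.28 CPM in hda9-1 with ABA and 3.29 CPM in hda9-1 without ABA, and 8.03 CPM in WT with ABA against 5.21 CPM in WT without ABA. It was picked by its likeness to NAR2.1 over these samples, so the shared order of groups is no separate result. Nearest to NRT1.8 were the calmodulin-like gene CML38 at 0.29 log2, AT5G39890 at 0.30 log2 and the homeobox gene WOX11 at 0.37 log2.

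The wider nitrogen pathway gives the setting for these genes. Of 96 other nitrogen genes in 4 lists, 95 were in the table and 92 were tested, and AT4G24720 is not analysed here. With ABA, 22 rose and 25 fell in hda9-1, and 21 rose and 25 fell in WT. Over all genes tested, 23.3% rose and 18.6% fell in hda9-1, and 17.0% rose and 14.0% fell in WT. Between genotypes, 3 of the 92 were higher and 8 lower in hda9-1 with ABA, and 4 higher and 10 lower without. The shares over all genes were 7.50% higher and 5.21% lower with ABA, and 6.98% higher and 6.57% lower without. The counts of each list below stand beside these same shares. The 11 calls with ABA became 5, 7 and 6 without WT replicates 1, 2 and 3 with ABA, and 5 and 20 without hda9-1 replicates 1 and 2 with ABA. In the same fits, the 2660 calls over all genes became 1075, 1328, 1527, 1348 and 4640. The 14 calls without ABA became 7, 9 and 7 without WT replicates 1, 2 and 3 without ABA, and 9 and 7 without hda9-1 replicates 2 and 3 without ABA. There, the 2835 calls over all genes became 1752, 1382, 1576, 1669 and 1540. None of the 92 passed the edgeR test for the difference of the ABA responses, where 9 had an unadjusted p under 0.05, against 11.8% of all genes. Limma-voom and DESeq2 called 0 of the 92, against 0 and 129 of all genes. Without ABA-treated hda9-1 replicate 2, 6 of the 92 were called, against 1612 of all genes.

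Among 25 other nitrate transporters and channels, 8 rose and 7 fell with ABA in hda9-1, and 8 rose and 6 fell in WT, with medians of 0.12 and 0.18 log2. NPF6.2, also known as NRT1.4, which stores nitrate in petioles, averaged 162 ± 19.1 CPM in hda9-1 with ABA and 66.2 ± 2.32 CPM in hda9-1 without ABA, and 171 ± 7.36 CPM in WT with ABA against 72.2 ± 7.89 CPM in WT without ABA (SD, n = 3 each). It rose by 1.29 ± 0.10 log2 in hda9-1 (adjusted p = 4.9e-08) and by 1.24 ± 0.10 log2 in WT (adjusted p = 9.9e-08). NPF6.4 rose by 1.32 ± 0.15 log2 in hda9-1 and 1.67 ± 0.15 log2 in WT. NRT1.7, which loads nitrate into the phloem of old leaves, rose by 1.08 ± 0.12 log2 in hda9-1 and 0.87 ± 0.12 log2 in WT. SLAC1, the guard cell anion channel that closes stomata, rose in hda9-1 (adjusted p = 7.3e-04) and rose by 1.85 ± 0.24 log2 in WT (adjusted p = 1.7e-05). NAXT1, a nitrate efflux transporter of roots, fell in both, to 1.78 ± 0.29 CPM in hda9-1 with ABA, against 8.58 ± 1.06 CPM in hda9-1 without ABA, and to 3.82 ± 1.09 CPM in WT with ABA, against 11.9 ± 1.03 CPM in WT without ABA. With ABA it was lower in hda9-1 than in WT, at -1.09 ± 0.21 log2 (adjusted p = 0.0043). In the same comparison SLAC1 was lower in hda9-1, at -0.73 ± 0.23 log2 (adjusted p = 0.045), a call that held in 14 of 22 alternative fits. Without ABA, SLAH2 was lower in hda9-1 at -1.18 ± 0.33 log2 (adjusted p = 0.027, called in 16 of 22 fits) and CLC-E, a chloride channel family member of the chloroplast, was higher by 0.57 ± 0.10 log2 (adjusted p = 0.0028).

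Among 13 genes of nitrite reduction and cofactor supply, 2 rose and 3 fell with ABA in hda9-1 and 1 rose and 4 fell in WT. G6PD3, a plastid enzyme that supplies NADPH, fell by 0.99 on the log2 scale in hda9-1 and by 1.35 in WT. CNX2, an enzyme of the molybdenum cofactor that nitrate reductase needs, rose by 0.53 ± 0.10 log2 in hda9-1 and 0.44 ± 0.10 log2 in WT. It was also higher in hda9-1 than in WT, by 0.58 ± 0.10 log2 with ABA (adjusted p = 0.0025) and 0.49 ± 0.10 log2 without (adjusted p = 0.0055). CNX1, another gene of that cofactor, was higher in hda9-1 by 0.32 ± 0.07 log2 without ABA (adjusted p = 0.0088). RFNR2, a root-type ferredoxin reductase that feeds nitrite reduction, was lower in hda9-1 with ABA, at -0.56 ± 0.12 log2 (adjusted p = 0.0093).

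Of 19 genes of ammonium transport and assimilation, 3 rose and 9 fell with ABA in hda9-1, and 3 rose and 8 fell in WT. The ammonium transporter AMT1;3 fell to 4.36 ± 1.59 CPM in hda9-1 with ABA, against 16.8 ± 6.07 CPM in hda9-1 without ABA, and to 5.13 ± 0.438 CPM in WT with ABA, against 24.1 ± 3.02 CPM in WT without ABA. The cytosolic glutamine synthetase genes moved in different directions. GLN1;2 fell by 0.83 on the log2 scale in hda9-1 and by 1.07 in WT, whereas GLN1;3 rose by 1.00 ± 0.10 log2 in hda9-1 and 0.60 ± 0.09 log2 in WT. GLN1;1 rose in hda9-1 (adjusted p = 6.2e-07) and rose by 1.00 ± 0.11 log2 in WT (adjusted p = 2.7e-06). Without ABA, 5 of the 19 were lower in hda9-1 and none was higher, among them GLN1;1 at -0.54 ± 0.11 log2 (adjusted p = 0.0044). ASN1, the asparagine synthetase induced by darkness and low sugar, averaged 598 ± 155 CPM in hda9-1 with ABA against 1255 ± 246 CPM in WT with ABA (adjusted p = 0.0044).

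**Figure D5:**
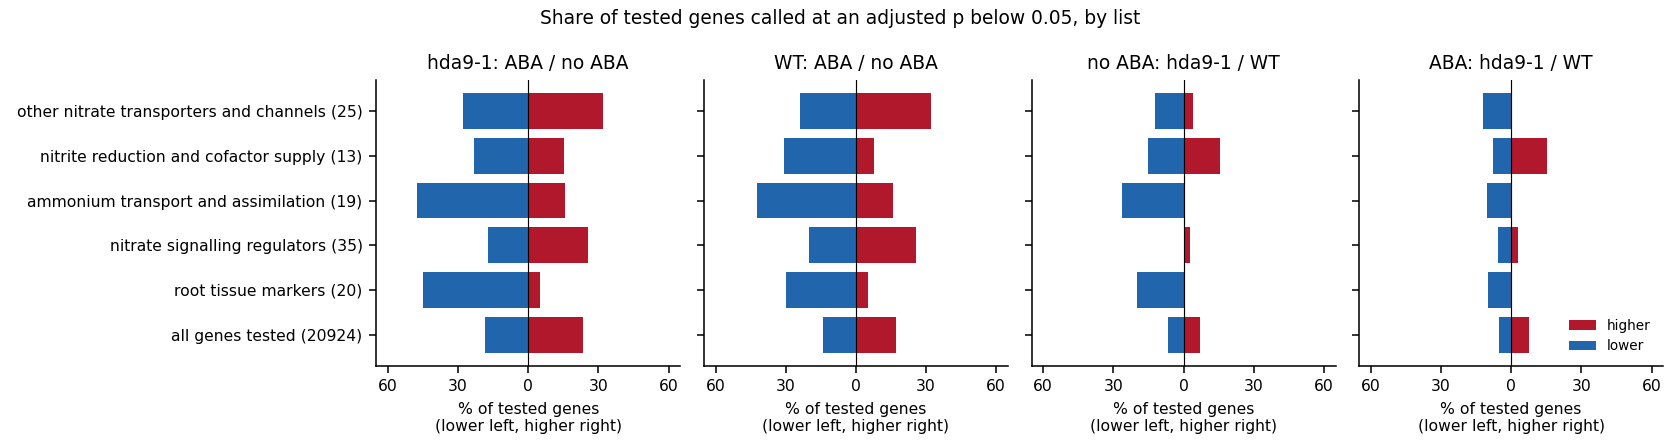
Share of tested genes called at an adjusted p below 0.05 in 4 comparisons, higher to the right and lower to the left, for 4 lists of other nitrogen genes, root markers and all genes tested, with the number tested in brackets. Ammonium genes show 9 lower and 3 higher of 19 in the ABA response of hda9-1, and root markers 9 lower and 1 higher of 20.

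Among 35 nitrate signalling regulators, 9 rose and 6 fell with ABA in hda9-1, and 9 rose and 7 fell in WT. The kinase gene CIPK8, which takes part in the low-affinity nitrate response, rose by 0.73 ± 0.08 log2 in hda9-1 (adjusted p = 1.6e-06) and 0.71 ± 0.08 log2 in WT (adjusted p = 3.0e-06). CBL9, a calcium sensor that acts with CIPK23 on NRT1.1, rose by 0.59 ± 0.10 log2 in hda9-1 and 0.74 ± 0.10 log2 in WT. Of the NIN-like transcription factors, NLP6 fell by 0.68 on the log2 scale in hda9-1 and by 0.73 in WT, and NLP8, known for nitrate-promoted germination, rose by 0.57 ± 0.18 log2 in hda9-1 (adjusted p = 0.017) and 1.18 ± 0.18 log2 in WT. NLP7, the central nitrate sensor and regulator, was the single regulator called between genotypes without ABA, with 148 ± 8.61 CPM in hda9-1 against 113 ± 7.63 CPM in WT (SD, n = 3 each, adjusted p = 0.029, called in 16 of 22 alternative fits). With ABA, the repressor HRS1 was higher in hda9-1 by 0.74 ± 0.19 log2 (adjusted p = 0.025, called in 17 of 22), and TGA1, a regulator of NRT2.1 and NRT2.2, was lower at -0.32 ± 0.09 log2 (adjusted p = 0.024, called in 17 of 22).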

How the data were processed

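Poly(A) libraries of 12 seedling samples were made with a strand-marking kit and 7 PCR cycles and read at 75 bp, per the labels' protocols. The authors deposited whole-number counts per gene, which were used as deposited. The submitters' processing notes list TAIR10 as the build and Salmon, Bowtie2 and limma 3.56 as tools. Which of them produced the counts, and whether counting used strand, is not given in the sources used here.

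Counts were fitted in R 4.3.3 with edgeR 4.0.16: filterByExpr (minimum count 10, minimum total 15), trimmed mean of M-values scaling, and 1 robust quasi-likelihood model with 4 group means over all 12 samples. The script was tested on simulated data. Alternatives were other scaling, no filter, limma-voom (limma 3.58.1), DESeq2 1.42.0, a fit to the 2 groups compared, a replicate block, an adjusted p below 0.01, removal of a trend with exon length, and each library left out. Ratios of low counts carry 95% binomial intervals from the summed counts of the 2 groups. These and the floor of 3 counts cover counting error only, since PCR copies carry no molecular identifiers. A fold set against the floor leaves out the counting error of the other group. Annotation, coordinates and the sequences before each start come from the RefSeq assembly TAIR10.1, and the count table holds no coordinates.

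The 10 genes, the lists and the tests were chosen with earlier results of these data known. Which values led to the choice is not recorded, so the members' folds and p-values are a description and support nothing beyond it. Named genes are the 10, HDA9, from each list and comparison the 3 called genes with the smallest p in the more common direction and 1 in the other (the text gives part of them), and the 3 genes nearest in pattern to each tested member whose group means span at least 1 log2 (log2 CPM with a prior count of 2, genes of at least 1 CPM). NRT2.3, COBL9, EXPA7, PIN2 and PYK10 fall outside this rule and were named after their values were seen, as were second-genotype values of some list genes. A gene whose listed name the reference lacks is given by its code. Same-numbered samples did not deviate together, with correlations from -0.13 to 0.12.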

Additional observations from a re-analysis of the deposited data

How the results depend on the processing

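Of 10 other settings and 12 left-out libraries, none reversed a called value. In the ABA response of hda9-1, 5 of the 7 genes were called, 3 at an adjusted p below 0.01, and 3 to 5 with a library left out. Of all 20924 genes, 8767 were called, 6052 at an adjusted p below 0.01, and 7300 to 9572 with a library left out. In the ABA response of WT, 0 of the 7 were called, 1 with limma-voom, 1 with DESeq2, 3 in the fit to the 2 groups alone and 0 to 1 with a library left out. Calls over all genes were 6474, with limma-voom 6618, with DESeq2 7128 and in the fit to the 2 groups alone 8369. With a library left out they were 4707 to 7437. Between genotypes without ABA, 2 of the 7 were called, 4 with DESeq2 and 2 to 3 with a library left out. Calls over all genes were 2835, with DESeq2 3692 and with a library left out 1382 to 3808. With ABA, 1 of the 7 was called, 2 with DESeq2, 0 with the replicate number as a block, 0 at an adjusted p below 0.01, 0 with the length trend removed and 0 to 2 with a library left out. The 1 call was NRT1.5, lower in hda9-1, but the fit to the 2 groups alone and the fit without untreated WT replicate 1 called NIA1, higher, in its place. Calls over all genes were 2660, and in the same order of settings 3646, 2344, 867, 3047 and 1075 to 4640. The replicate block changed no other count by over 1.5 times, and the numbers did not pair the samples (correlations -0.13 to 0.12). Of the other nitrogen genes, 11 were called between genotypes with ABA, 4 at an adjusted p below 0.01 and 5 to 20 with a library left out, and 14 without ABA, 4 at an adjusted p below 0.01 and 7 to 16 with a library left out. An adjusted p below 0.01 left 867 calls over all genes with ABA and 986 without. For the difference of the ABA responses, 0 of the other nitrogen genes were called and 0 to 6 with a library left out. Over all genes these were 0 and 0 to 1612, and the fit to 2 groups gives no value.

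Some uncalled values changed sign. With each library left out in turn, NIA1 ranged from -0.07 to 0.22 log2 in the ABA response of hda9-1 and from -0.11 to 0.32 log2 in that of WT. NRT1.8 ranged from -0.13 to 1.04 log2 in the ABA response of WT and from -0.13 to 0.36 log2 between genotypes with ABA, and NRT1.5 from -0.24 to 0.00 log2 between genotypes without ABA. For the difference of the responses, NRT1.1 ranged from -0.02 to 0.38 log2, NIA1 from -0.24 to 0.18 log2 and NIA2 from -0.13 to 0.20 log2. There NIA2 was also -0.02 log2 with RLE factors, limma-voom and DESeq2 and 0.00 without a filter, and NIA1 was 0.06 with the length trend removed. The cause was not tested. Depth limits NRT2.2, NRT2.4 and NRT2.5, which had at most 12 counts in any library.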
